A study of Mus musculus with 16 samples.

Results

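The effect of Ccm3 loss in the presence of rapamycin was examined in 5 of the 16 RNA-seq libraries of the series, 3 from Ccm3 KO and 2 from Ccm3 WT mouse brain microvascular endothelial cells (mBMEC), all of which had been given rapamycin (KO+R and WT+R, 100 nM over 24 h). The libraries were taken by their labelled genotype (CCM3KO or CCM3WT) and treatment, and replicates 1 and 2 were paired across genotypes by number, which left KO+R replicate 3 without a partner. mBMEC came from pooled brains of adult mice of 8 to 10 weeks that carried loxP-flanked Pdcd10 alleles and a tamoxifen-inducible Cre recombinase under the endothelial Cdh5 (PAC) promoter, and were selected with puromycin before use at passage 2. KO cells had been given 4-hydroxytamoxifen (4-OHT) and WT cells of the same floxed genotype had not, so the effects of 4-OHT itself and of Ccm3 loss cannot be told apart in any comparison of KO with WT cells. The 6 untreated libraries (3 WT and 3 KO) served as the matched comparison without the drug.

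Ccm3, encoded by Pdcd10, forms the cerebral cavernous malformation (CCM) complex with Krit1 and Ccm2 and also belongs to the STRIPAK kinase and phosphatase complex. In brain endothelium the complex restrains the kinase Map3k3, which signals through Map2k5 and Mapk7 to the transcription factors Klf2 and Klf4. Loss of the complex is known to raise Klf2 and Klf4, to change junctions, actin stress fibres and matrix, and to cause cavernomas. Rapamycin inhibits mTORC1, a kinase complex that promotes protein synthesis and growth.

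Levels are given in CPM, the counts of a gene relative to the total of its library after scaling with TMM factors, and fold changes are on the log2 scale of the fitted counts with their standard error (SE). The 5 libraries held 20.3 to 25.0 M counts. All 18 endothelial genes of the identity list were measured above the filter, with Cdh5 at 2592 to 2914 CPM and Pecam1 at 1988 to 3467 CPM. Of the mural cell markers, Kcnj8, Abcc9, Higd1b and Vtn were under 1 CPM in all 5 libraries, as were 9 of 11 microglia, 6 of 8 oligodendrocyte, 5 of 8 astrocyte and 5 of 8 neuron markers. KO+R replicate 3 stood apart in fibroblast collagens, with Col1a1 at 113 CPM and Col1a2 at 64.6 CPM, whereas the other 4 libraries held 1.43 to 16.3 and 1.27 to 10.9 CPM. The untreated libraries numbered 3 were also the highest of their groups in Col1a1, with 52.9 CPM in WT and 81.3 CPM in KO. The part of these cells in the results was not tested, and the number of called genes and the main list counts and medians are also given without KO+R replicate 3.

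Pdcd10 (chr3:75423789-75464748, minus strand, GRCm39) was measured first as the targeted gene. It stood at 52.0 and 27.7 CPM in WT+R replicates 1 and 2, and at 8.37, 7.83 and 9.53 CPM in KO+R replicates 1, 2 and 3. Every KO+R library was below both WT+R libraries, and the KO+R values were close to each other whereas the WT+R values were not. The fitted log2 fold change was -2.29 ± 0.46, a level 4.91-fold lower, with an adjusted p of 0.0732 (edgeR quasi-likelihood test with Benjamini-Hochberg adjustment), which missed the threshold of 0.05. It passed in 6 of 11 other settings, was -1.64 with effective lengths (adjusted p = 0.139), and passed in none of the 5 fits that left out a rapamycin library. The fits on the 5 rapamycin libraries and on replicates 1 and 2 alone were among those it passed, and both rested on pairs 1 and 2. Most Pdcd10 counts fell on a single transcript, Pdcd10-205, with 1140 and 631 counts in WT+R and 125, 163 and 173 in KO+R. Of the untreated libraries, the one labelled WT replicate 1 held only 11.5 CPM of Pdcd10, near the 9.72 to 11.0 CPM of untreated KO libraries and below the 31.2 and 47.0 CPM of the other WT libraries. It went against its label in this respect, and comparisons with untreated cells are given with and without it.

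**Figure D1:**
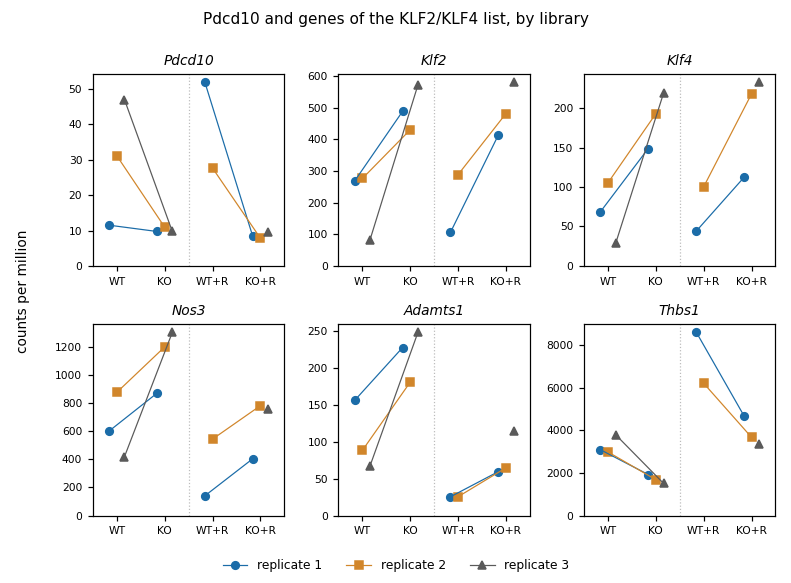
Level in CPM (vertical axis, from 0) of Pdcd10 and of 5 genes of the KLF2 and KLF4 list in untreated WT and KO and in WT+R and KO+R cells. Each point is a library, its shape and colour give the replicate number, and lines join the same number; Pdcd10 lies between 7.83 and 9.53 CPM in KO+R and at 27.7 and 52.0 CPM in WT+R.

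Under rapamycin, 14 genes passed the threshold between KO+R and WT+R cells (adjusted p under 0.05 and a fold change above 1.5), which was 0.0944% of the 14838 genes tested. Expression of 11 genes fell in KO+R cells and that of 3 rose. The largest falls were in Cyp26b1, which degrades retinoic acid, and in Hs6st2, which sulfates heparan sulfate. Several of the others encode actin-binding proteins (Lmod1, Palld, Cald1) or secreted signals (Sema3e, Bdnf), and the rises were in Hlx, Bean1 and Rapgef4. Of the 14 genes, 13 had the same sign in untreated KO against WT cells, as did 69.7% of all tested genes. In the same edgeR fit 1 of them, Hlx, also passed in untreated cells (0.96 ± 0.12, adjusted p = 0.0206). Its untreated change was 1.09 without the library labelled WT replicate 1. At an unadjusted p under 0.05 there were 1585 genes (10.7%), 772 higher and 813 lower in KO+R cells. The number called depended on the fit: it was 0 without the replicate number as a block (849 genes at an unadjusted p under 0.05), 304 with DESeq2 and the block (2.37% of the genes it gave an adjusted p), 77 with DESeq2 and no block (0.588%), 697 with edgeR on the 5 rapamycin libraries (5.06%), and 32 without the untreated library labelled WT replicate 1. In the fit on the 5 rapamycin libraries the block absorbed KO+R replicate 3, the only library of its number. Those fold changes rested on pairs 1 and 2. Leaving out 1 rapamycin library gave 0 calls without WT+R replicate 1, KO+R replicate 2 or KO+R replicate 3, 1 call (Cyp26b1) without WT+R replicate 2 and 10 calls without KO+R replicate 1.

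Cyp26b1 (chr6:84548396-84570890, minus strand) had 52.2 and 13.5 CPM in WT+R replicates 1 and 2, and 1.54, 0.779 and 3.43 CPM in KO+R replicates 1, 2 and 3. The groups did not overlap, although the WT+R libraries differed widely. Its log2 fold change was -4.60 ± 0.56 (adjusted p = 0.0239), and it was -3.36 without WT+R replicate 1 (adjusted p = 0.369) and -5.38 without WT+R replicate 2. In untreated cells the gene was low in both genotypes, with 2.12, 2.50 and 2.34 CPM in WT and 1.01, 1.21 and 2.98 CPM in KO libraries. Only the WT+R libraries thus stood above 3.43 CPM among the untreated and rapamycin libraries. Hs6st2 (chrX:50476089-50770733, minus strand) was low throughout, with 1.97 and 6.83 CPM in WT+R and 0.265, 0.738 and 0.624 CPM in KO+R (log2 fold change -3.09 ± 0.47). Its untreated values overlapped between genotypes, from 0.966 to 7.06 CPM in WT and from 1.01 to 2.69 CPM in KO. The overlap came from the library labelled WT replicate 1 alone, at 0.966 CPM. The other WT libraries, at 7.06 and 3.61 CPM, were above all untreated KO libraries. Its untreated change was -0.86 ± 0.38, and -1.05 without that library.

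Lmod1, Palld and Cald1, which encode actin-binding proteins, were among the 11 genes that fell. Lmod1, a leiomodin that nucleates actin filaments in smooth muscle (chr1:135252509-135295907), had 6.58 and 39.8 CPM in WT+R and 1.16, 4.72 and 2.54 CPM in KO+R. Its WT+R replicates differed widely, but the log2 ratio of KO+R to WT+R was -2.50 in pair 1 and -3.08 in pair 2, and the fitted change was -2.74 ± 0.41. Palld, the stress fibre scaffold palladin (chr8:61964458-62355796), had 223 and 379 CPM in WT+R and 90.5, 158 and 135 CPM in KO+R, a change of -1.33 ± 0.20. Cald1, caldesmon, which binds actin and myosin (chr6:34575435-34752408), had 956 and 1094 CPM in WT+R and 495, 596 and 466 CPM in KO+R, a change of -0.95 ± 0.14. All KO+R libraries were below both WT+R libraries for these 3 genes. In untreated cells the values of Cald1 overlapped between WT (327 to 502 CPM) and KO (305 to 436 CPM). Within each replicate number the KO library was the lower, at 305 against 327, 436 against 502 and 359 against 427 CPM. The fitted untreated change was -0.19 ± 0.12, and -0.30 without the library labelled WT replicate 1.

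The contractile genes of the mesenchymal transition list pointed the same way but did not pass. Acta2, smooth muscle actin, had 557 and 618 CPM in WT+R and 161, 60.2 and 90.8 CPM in KO+R (log2 fold change -2.32 ± 0.58, adjusted p = 0.138). Tagln, transgelin, which was chosen after its values were seen, had 899 and 1858 CPM in WT+R and 279.9, 255 and 163 CPM in KO+R (adjusted p = 0.181), and 66.7% of its exonic bases are shared with another gene, so its counts are uncertain in this unstranded data. Acta2 is also a mural cell marker. Anpep, an aminopeptidase gene and the other mural marker of high level, lay the opposite way, at 3.58 and 3.18 CPM in WT+R and 13.4, 11.9 and 37.3 CPM in KO+R. Without Acta2 and Anpep, the other mural markers summed to 7.88 and 14.0 CPM in WT+R and to 11.4, 4.59 and 17.2 CPM in KO+R, so these ranges overlapped. Vim, an intermediate filament gene of mesenchymal cells, had 3507 and 4396 CPM in WT+R and 6092, 6942 and 6895 CPM in KO+R (0.77 ± 0.19, adjusted p = 0.131).

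**Figure D2:**
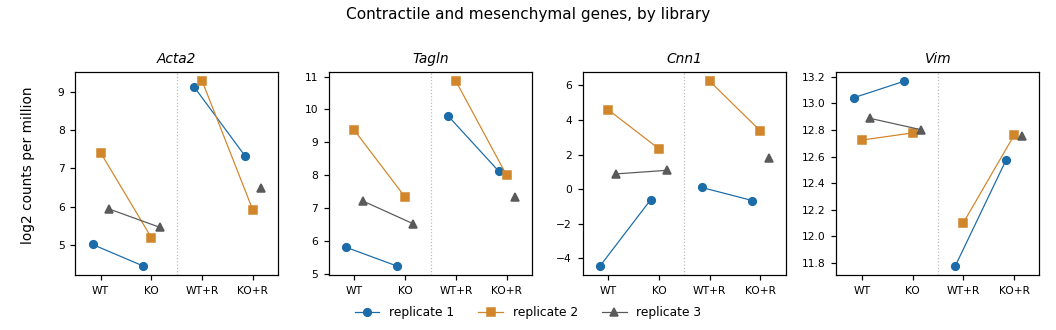
Log2 CPM (vertical axis) of Acta2, Tagln, Cnn1 and Vim in untreated WT and KO and in WT+R and KO+R libraries. Points are libraries, with shape and colour for the replicate number, and lines join the same number; Acta2 and Tagln do not overlap between WT+R and KO+R, whereas Cnn1 does, with 1.07 and 75.9 CPM in WT+R.

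Sema3e, Bdnf, P2ry10b and Gpr161 also fell. Sema3e, a semaphorin that signals to endothelial plexin D1 (chr5:14075290-14306719), had 12.5 and 25.8 CPM in WT+R and 2.91, 5.41 and 7.44 CPM in KO+R, a change of -2.13 ± 0.30. Bdnf, a neurotrophin (chr2:109505045-109557475), had 40.6 and 47.3 CPM in WT+R and 10.5, 13.1 and 8.95 CPM in KO+R, a change of -2.02 ± 0.29 (adjusted p = 0.0284). For Bdnf the libraries of each group were close to each other and far from the other group. The receptor genes P2ry10b (chrX:106192533-106219818) and Gpr161, a receptor of the primary cilium that restrains hedgehog signalling (chr1:165108568-165154316), changed by -1.92 ± 0.24 and -1.17 ± 0.15. Gpr161 was at 15.5 and 15.8 CPM in WT+R and at 7.10, 7.87 and 7.40 CPM in KO+R. Exons of Bdnf and P2ry10b are shared with a neighbouring transcript over 13.5% and 13.2% of their bases, so both are uncertain to that extent.

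The other called genes were a pair of homeobox factors and 3 genes of other functions. Lhx6, a LIM homeobox factor best known in interneurons (chr2:35971964-35995601), had 50.3 and 47.8 CPM in WT+R and 15.5, 18.9 and 11.7 CPM in KO+R, a change of -1.64 ± 0.22 (adjusted p = 0.0248). Its untreated levels did not separate the genotypes (15.7 to 30.3 CPM in WT, 16.2 to 26.9 CPM in KO). Hlx, another homeobox factor (chr1:184458496-184465842), rose from 58.5 and 36.7 CPM in WT+R to 141, 90.9 and 113 CPM in KO+R, a change of 1.33 ± 0.14 with the smallest adjusted p of the comparison, 0.0171. Of its exonic bases, 17.0% are shared with the neighbouring Gm34342. Rapgef4, a cAMP-activated exchange factor for Rap1 (chr2:71811328-72089838), rose by 0.73 ± 0.10, from 23.7 and 26.4 to 37.3, 41.0 and 44.8 CPM. Bean1, a membrane protein that binds NEDD4 ubiquitin ligases (chr8:104897045-104945754), rose by 0.89 ± 0.12, and Rhobtb3 (chr13:76017652-76092199), fell by 0.88 on the log2 scale (SE 0.14).

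**Figure D3:**
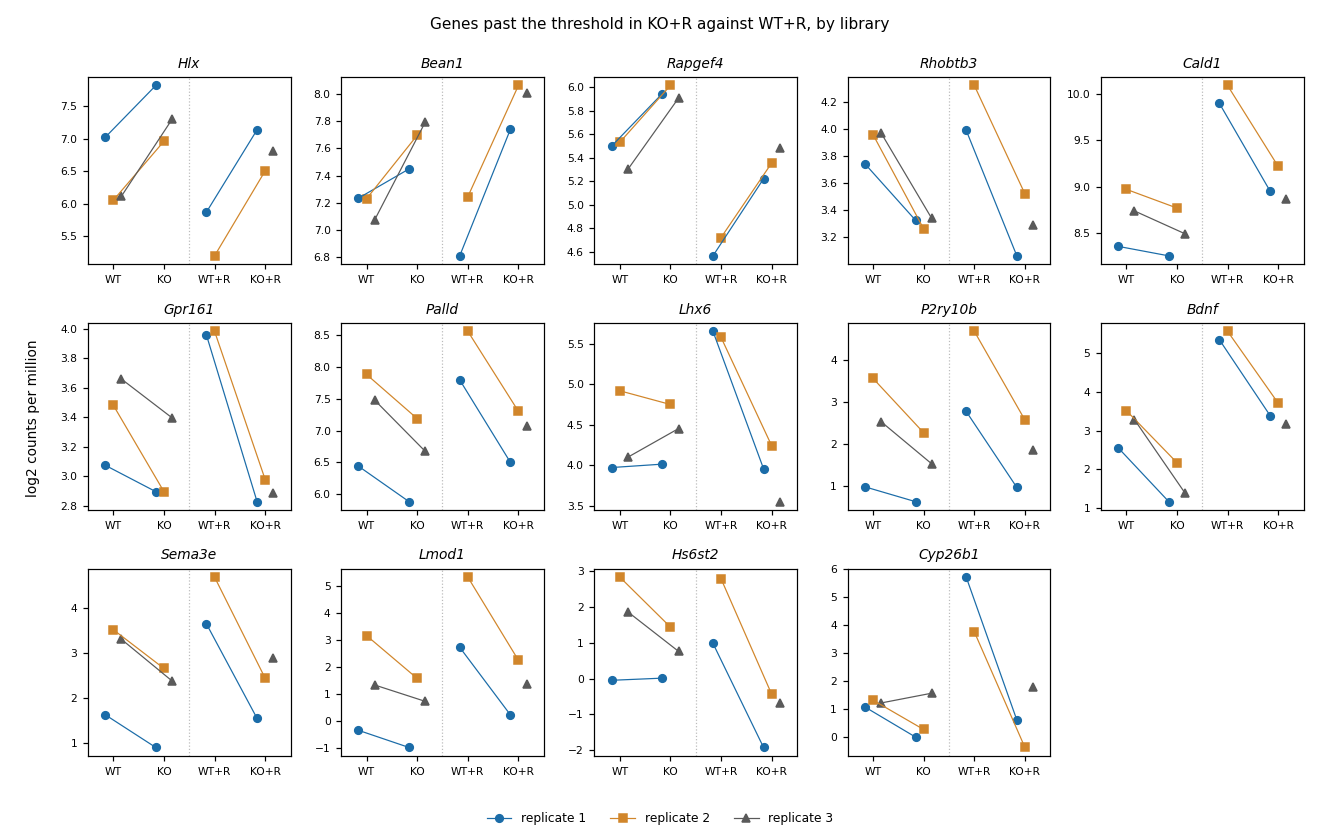
Log2 CPM (vertical axis) of the 14 genes past the threshold in KO+R against WT+R, ordered from the largest rise (Hlx) to the largest fall (Cyp26b1), in untreated WT and KO (left of the dotted line) and WT+R and KO+R libraries. Points are libraries, with shape and colour for the replicate number, and lines join the same number; in each panel all 3 KO+R points lie on 1 side of both WT+R points, a property 9.43% (higher) and 9.79% (lower) of all tested genes share.

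The KLF2 and KLF4 pathway was then followed from the complex to its targets. In the CCM and STRIPAK list, 18 of 19 members were tested and edgeR on all 16 libraries called 0. An unadjusted p under 0.05 was reached by 4 members, and by 10.7% of all tested genes. DESeq2 called 2 with the block, Pdcd10 and Rasip1, and 1 without it. There were 5 members above and 1 below both WT+R libraries in every KO+R library, which was the case for 9.43% and 9.79% of all tested genes. The partners of Ccm3 overlapped between groups, with Krit1 at 29.6 and 31.4 CPM in WT+R and 25.1 to 31.6 CPM in KO+R, and Ccm2 at 65.9 and 77.2 CPM in WT+R and 64.3 to 79.7 CPM in KO+R. Rasip1, a Rap1 effector, had 296 and 280 CPM in WT+R and 505, 396 and 523 CPM in KO+R (adjusted p = 0.177), although 51.3% of its exonic bases are shared with other genes.

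Klf2 and Klf4 themselves were higher in each KO+R library than in either WT+R library, but did not pass in edgeR on all 16 libraries. Both passed in edgeR on the 5 rapamycin libraries (adjusted p = 4.22e-08 and 1.7e-09), a fit that rested on pairs 1 and 2. From so few pairs these p values are a poor measure of the spread between cultures. Both also passed with DESeq2 and the block (0.0461 and 0.0169). With DESeq2 and no block neither did. Klf2 had 106 and 289 CPM in WT+R and 414, 482 and 581 CPM in KO+R (1.42 ± 0.50, adjusted p = 0.321). Klf4 had 43.8 and 100.5 CPM in WT+R and 112, 219 and 233 CPM in KO+R (1.48 ± 0.45, adjusted p = 0.221). In both genes WT+R replicate 1 was well below replicate 2. KO+R replicate 1 was also below KO+R replicate 2, and the log2 ratios of KO+R to WT+R in pairs 1 and 2 were 1.97 and 0.74 for Klf2 and 1.36 and 1.12 for Klf4. The fold change of Klf2 was 0.82 without WT+R replicate 1 and 2.28 without WT+R replicate 2. Adamts1, a versican-cleaving protease downstream of them, had 25.5 and 25.6 CPM in WT+R and 59.5, 64.7 and 115 CPM in KO+R (1.61 ± 0.42, adjusted p = 0.158). Nos3, endothelial nitric oxide synthase, overlapped between groups, with 141 and 543 CPM in WT+R and 404, 780 and 756 CPM in KO+R (1.04 ± 0.36, adjusted p = 0.313), and shares 32.7% of its exonic bases with other genes. Its fold change was 0.56 without WT+R replicate 1 and 1.70 without WT+R replicate 2. Thbs1, the anti-angiogenic thrombospondin 1, had 8622 and 6206 CPM in WT+R and 4689, 3672 and 3355 CPM in KO+R (-0.91 ± 0.18, adjusted p = 0.0732).

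Over the 16 members of the KLF2 and KLF4 list the median log2 fold change was 0.79, against -0.01 over all tested genes. Klf4, Adamts1, Thbs1, Edn1, Slco2a1, Nostrin and Palmd are also among the 168 genes that the study listed for untreated KO against WT cells. The shift of this list is therefore not independent of that choice. edgeR on all 16 libraries called 0 members, with 10 at an unadjusted p under 0.05 (10.7% of all tested genes). DESeq2 called 6 with the block (Adamts1, Edn1, Klf2, Klf4, Palmd and Thbs1) and 2 without it. Of all genes given an adjusted p it called 2.37% and 0.588%. In every KO+R library 5 members were above both WT+R libraries and 2 were below, against 9.43% and 9.79% of all tested genes. Without KO+R replicate 3 the median was 0.68, with 5 above and 3 below. The difference between the genotype effect with rapamycin and without it was 0.13 ± 0.62 for Klf2, -0.05 ± 0.56 for Klf4, 0.23 ± 0.46 for Nos3, 0.54 ± 0.53 for Adamts1 and 0.05 ± 0.24 for Thbs1 on the log2 scale. Their adjusted p was 1.00 each, which does not show that the effects were alike. Without the library labelled WT replicate 1 these differences were -0.21, -0.26, -0.14, 0.00 and 0.24.

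The other lists were described by their counts, since edgeR on all 16 libraries called 0 members in each. DESeq2 with the block called up to 3 members of each, and DESeq2 without it up to 2, against 2.37% and 0.588% of the genes they gave an adjusted p. Of all tested genes, 9.43% were above and 9.79% below both WT+R libraries in every KO+R library. An unadjusted p under 0.05 was reached by 10.7%. Some lists share members with the study's 168 genes for untreated cells, among them Ccn1, Ccn2 and Ankrd1 (YAP and TAZ), Jag2 and Unc5b (Notch) and Lama5 and Lamb1 (matrix). These lists are not independent of that choice. All 12 members of the YAP and TAZ list were tested, 6 were below both WT+R libraries in every KO+R library and 0 were above, with a median of -0.51 (-0.42 without KO+R replicate 3). At an unadjusted p under 0.05 there were 7, and DESeq2 called 3 with the block (Ccn1, Ccn2 and Tead1) and 1 without it. Tead1, the DNA-binding partner of YAP, had 132 and 115 CPM in WT+R and 78.9, 75.9 and 76.1 CPM in KO+R (-0.72 ± 0.13, adjusted p = 0.0582), and the LIM protein gene Ajuba had 295 and 216 against 208, 179 and 177 CPM. The connective tissue growth factor gene Ccn2 had 6814 and 5652 CPM in WT+R and 3691, 3069.6 and 2441 CPM in KO+R. Of 25 tested glycolysis and hypoxia genes, 11 were below both WT+R libraries in every KO+R library and 0 were above (median -0.34, and -0.32 without KO+R replicate 3), 8 had an unadjusted p under 0.05, and DESeq2 called 0. Without KO+R replicate 3 the counts of the YAP and TAZ list and of the glycolysis list were still 6 and 11 below and 0 above, while 12.6% of all tested genes were then below and 11.8% above. Pgk1, phosphoglycerate kinase, had 815 and 685 CPM in WT+R and 477, 543 and 415 CPM in KO+R (adjusted p = 0.221), and P4ha1, a collagen prolyl hydroxylase subunit, 146 and 143 against 86.9, 107 and 77.4 CPM (adjusted p = 0.186).

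The endothelial list held 8 of 18 members above both WT+R libraries in every KO+R library and 1 below, Emcn, with a median of 0.22, also 8 and 1 without KO+R replicate 3. Over all tested genes 9.43% were above, 9.79% below and 10.7% had an unadjusted p under 0.05. At an unadjusted p under 0.05 there were 3, and DESeq2 called 0. Tek, the angiopoietin receptor, had 50.8 and 75.2 CPM in WT+R and 84.8, 121 and 143 CPM in KO+R (adjusted p = 0.463), and the sialomucin gene Emcn had 1894 and 1927 CPM against 1326, 1242 and 1422 CPM (adjusted p = 0.236). In the Notch list, 6 of 17 members were above and 2 below (median 0.36), 7 had an unadjusted p under 0.05, and DESeq2 with the block called Gja5 and Jag2. In this list the ligand gene Jag2 had 38.4 and 65.2 CPM in WT+R and 81.4, 142 and 143 CPM in KO+R. The netrin receptor gene Unc5b was lower, at 125 and 107 CPM in WT+R against 78.6, 79.1 and 76.4 CPM in KO+R (adjusted p = 0.182). In the blood-brain barrier list, 5 of 23 tested members were above and 2 below, with a median of 0.03 (-0.10 without KO+R replicate 3). At an unadjusted p under 0.05 there were 5, and DESeq2 called 0. The tight junction gene Cldn5 had 603 and 812 CPM in WT+R and 1540.3, 1180.3 and 1552 CPM in KO+R (0.92 ± 0.36, adjusted p = 0.390), and the tricellular junction gene Lsr had 17.4 and 31.7 against 42.9, 65.3 and 119 CPM, with 38.2% of its exonic bases shared.

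Matrix and coagulation lists held more members below than above. Over all tested genes 9.79% were below, 9.43% above and 10.7% had an unadjusted p under 0.05. Of 20 matrix genes, 6 were below both WT+R libraries in every KO+R library and 2 above, with a median of -0.01 that was 0.04 with effective lengths and -0.12 without KO+R replicate 3. At an unadjusted p under 0.05 there were 6, and DESeq2 with the block called Lama5 and Lamb1. The laminin gene Lamb1 had 611 and 400 CPM in WT+R and 256, 174 and 171 CPM in KO+R (-1.28 ± 0.22, adjusted p = 0.0559), whereas Lama5 had 192 and 289 against 284, 499 and 580 CPM (adjusted p = 0.214). Of 12 coagulation genes, 4 were below and 0 above, 3 had an unadjusted p under 0.05, and DESeq2 with the block called F3 and Thbs1. F3, tissue factor, was low, with 7.70 and 31.7 CPM in WT+R and 1.80, 3.69 and 4.81 CPM in KO+R (-2.41 ± 0.62, adjusted p = 0.151).

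In the BMP list, 3 of 22 members were above and 4 below both WT+R libraries (median -0.22), 6 had an unadjusted p under 0.05, and DESeq2 with the block called Acvrl1 and Bmp2. Over all tested genes 9.43% were above, 9.79% below and 10.7% had an unadjusted p under 0.05. The inhibitor gene Smad7 had 78.3 and 84.3 CPM in WT+R and 57.2, 61.6 and 55.7 CPM in KO+R (adjusted p = 0.0938), and the receptor gene Acvrl1 had 673 and 944 against 991, 1517 and 1418 CPM (adjusted p = 0.199). The mesenchymal transition list was split evenly, with 5 of 20 members above and 5 below (median -0.19). In it 10 had an unadjusted p under 0.05, and DESeq2 with the block called Acta2 and Vim. Cholesterol synthesis genes held 6 of 23 members above and 0 below (median 0.22), 5 had an unadjusted p under 0.05, and DESeq2 with the block called 3. Tm7sf2, a sterol reductase, had 2.55 and 3.44 CPM in WT+R and 5.40, 6.19 and 4.72 CPM in KO+R (adjusted p = 0.130). The NRF2 list held 4 of 16 above and 0 below (median 0.10), 3 had an unadjusted p under 0.05 and DESeq2 with the block called 1, the quinone reductase gene Nqo1, at 14.1 and 24.7 CPM in WT+R and 53.9, 48.1 and 122 CPM in KO+R (adjusted p = 0.194).

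Lists of leukocyte adhesion, interferon response, ATF4 targets, DNA replication and mitosis were counted in the same way. Of all tested genes, 9.43% were above, 9.79% below and 10.7% had an unadjusted p under 0.05. They held 2 of 12, 1 of 22, 1 of 20, 0 of 17 and 0 of 17 members above both WT+R libraries in every KO+R library, and 1, 1, 2, 0 and 0 below. At an unadjusted p under 0.05 there were 1, 0, 0, 0 and 0, and DESeq2 called 0 in each. The medians of the replication and mitosis lists were 0.24 and 0.49. Without the block they were 0.16 and 0.21. The fitted change was positive for 13 of 17 replication and 17 of 17 mitosis members, against 7133 of 14838 tested genes. No member separated the groups, a count that takes no account of the pairing by number. The mitotic spindle gene Tpx2, for example, had 2.73 and 26.8 CPM in WT+R and 7.36 to 29.1 CPM in KO+R, so that libraries numbered 1 and 2 were further apart than the genotypes.

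**Figure D4:**
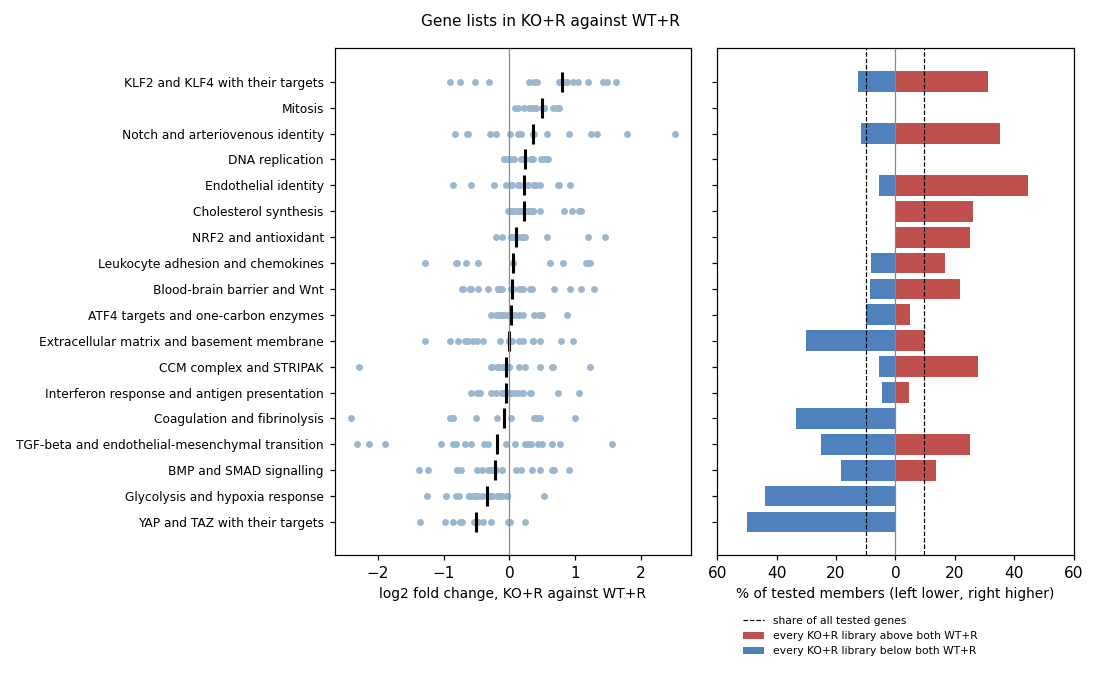
Left, fitted log2 fold change of KO+R against WT+R (horizontal axis) for each tested member (points) of 18 gene lists, with the list's median as a black bar. Right, share of the tested members in percent that were above (red, to the right) or below (blue, to the left) both WT+R libraries in every KO+R library, with dashed lines at the shares over all tested genes, 9.43% and 9.79%; the YAP and TAZ list has 6 of 12 below and 0 above.

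The 168 genes that the study listed for untreated KO against WT cells were followed in the rapamycin libraries, which had no part in choosing that list but came from cultures with the same replicate numbers. Of these, 166 had the same sign in KO+R against WT+R as in untreated KO against WT in this fit, and 140 (83.3%) differed in that direction by more than 1.5 times, whereas 0 did so in the opposite direction. Over all tested genes these shares were 69.7% and 13.1%. The median log2 fold change along the untreated direction was 1.03 with rapamycin and 1.13 without it (0.99 and 1.31 without the library labelled WT replicate 1). The genes and their signs were taken from the untreated libraries, which can raise the untreated median. The medians with and without the drug are therefore not like for like. Every KO+R library lay beyond both WT+R libraries in the untreated direction for 124 genes (73.8%, against 16.1% of all tested genes). By edgeR on all 16 libraries 1 of the 168 genes was called, Bdnf, and 134 had an unadjusted p under 0.05. DESeq2 called 77 with the block and 30 without it. Without the library labelled WT replicate 1, 166 genes still had the same sign and 138 passed 1.5 times. When 1 rapamycin library was left out, 164 to 166 had the same sign and 124 to 148 passed 1.5 times, with 125 (74.4%, against 12.3% of all tested genes) without KO+R replicate 3.

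Among the listed genes with the largest values were Ednrb, the endothelin B receptor, with 0.627 and 0.645 CPM in WT+R and 2.81, 3.36 and 6.82 CPM in KO+R, and Xdh, xanthine dehydrogenase, with 3.04 and 2.92 against 10.4, 20.3 and 25.8 CPM (2.25 ± 0.37, adjusted p = 0.0554). The matricellular gene Ccn3 had 25.0 and 27.5 CPM in WT+R and 70.8, 121 and 102 CPM in KO+R (1.86 ± 0.36, adjusted p = 0.0731). On the lower side the protocadherin gene Pcdh7 had 151 and 102 CPM in WT+R and 53.7, 37.8 and 32.6 CPM in KO+R (-1.62 ± 0.27, adjusted p = 0.0554). These 4 genes were chosen after their values were seen. Apod, a lipocalin that is also a fibroblast marker, had 35.1 and 144 CPM in WT+R and 217, 573 and 886 CPM in KO+R (2.56 ± 0.61, adjusted p = 0.123), and 742 to 1121 CPM in untreated KO cells.

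**Figure D5:**
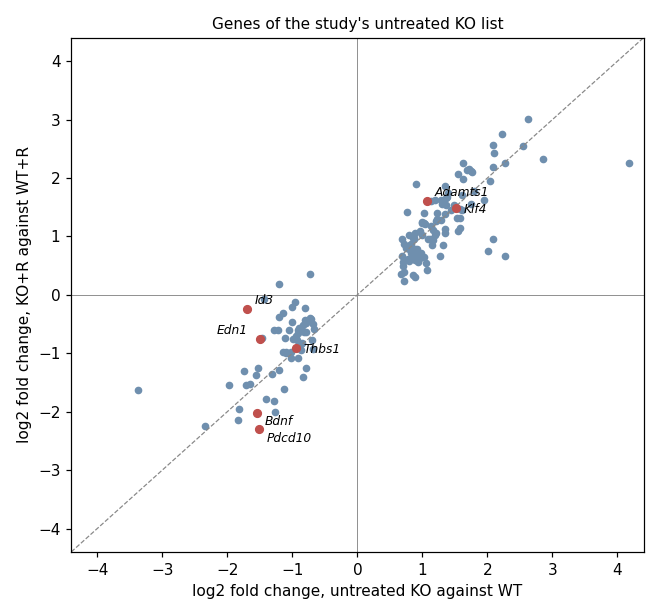
Fitted log2 fold change of untreated KO against WT (horizontal axis) and of KO+R against WT+R (vertical axis) for the 168 genes of the study's untreated list, with equality as a dashed line and some genes named in red. Points lie along the dashed line with 166 in the quadrants of equal sign, and Id3 lies near 0 on the vertical axis, at -0.24.

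Whether the genotype effect differed between rapamycin-treated and untreated cells was tested gene by gene as the difference of the effects. At an adjusted p under 0.05, 0 genes passed (0% of those tested), 287 had an unadjusted p under 0.05, and the smallest adjusted p was 0.143. DESeq2 with the block called 7 genes, DESeq2 without it 1, and edgeR with the untreated and rapamycin libraries alone 3. The calls of the first held Id3, Lhx6, Cyp26b1 and Abca4 (adjusted p = 3.04e-05, 0.000523, 0.000523 and 0.0334). Its other calls, Fam169b, Gm11537 and Gm45062, had fitted log2 differences of -24.87, 39.59 and -31.55. The call without the block, Gm45140, had -22.4, and values of this size cannot be read as folds. Id3, a BMP-induced inhibitor of differentiation, was also called in the edgeR fit of the untreated and rapamycin libraries alone. It had 96.7, 94.9 and 104 CPM in untreated WT and 37.1, 28.1 and 27.5 CPM in untreated KO cells, but 396 and 339 CPM in WT+R and 355, 269 and 279 CPM in KO+R. Its genotype effect was -1.69 ± 0.15 without the drug and -0.24 ± 0.17 with it, a difference of 1.45 ± 0.23 (adjusted p = 0.333, and 0.141 without the library labelled WT replicate 1).

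For the other genes with the smallest p in edgeR, the difference was -1.71 ± 0.29 for Lhx6 (adjusted p = 0.452), -3.96 ± 0.73 for Cyp26b1 (adjusted p = 0.644), -0.77 ± 0.18 for Cald1 and -0.83 ± 0.20 for Gpr161 (adjusted p = 1.00 each). Without the library labelled WT replicate 1 these were -1.55, -3.95, -0.64 and -0.72. Abca4, a retinoid flippase, had 13.1 and 24.6 CPM in WT+R and 37.8, 57.2 and 40.5 CPM in KO+R, but 85.1 to 100.5 CPM in untreated WT and 74.0 to 102 CPM in untreated KO cells (1.35 ± 0.29, and 1.25 without the library labelled WT replicate 1). The checkpoint ligand gene Vsir was similar, with 52.2 and 34.4 CPM in WT+R, 81.3, 88.5 and 116 CPM in KO+R, and overlapping untreated levels (0.94 ± 0.25, and 0.80 without that library). For Tmem51 the difference was 0.50 ± 0.13, and 0.50 without that library. For Maml3, a Notch coactivator gene, it was 1.22 ± 0.34, and 1.10 without that library, with an effect of 0.45 under the drug and -0.77 in untreated cells. Kif14, a kinesin of cytokinesis, had the smallest p, but it was listed at 3.48 CPM in WT+R replicate 2, 7.55 and 3.86 CPM in untreated KO replicates 2 and 3 and under 0.1 CPM in the other 8 of these 11 libraries, so no fold is given. Leaving out the library labelled WT replicate 1 moved the untreated log2 fold change of the 14 called genes by at most 0.19.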

How the data were processed

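Per transcript, the authors deposited estimated counts (expected counts in Salmon's format), TPM values and effective lengths. The submitters' notes name Salmon 1.5.2, Trim Galore 0.6.7, HTSeq 0.13.5, DESeq2 1.34.0, R 4.2.2 and build GRCm39, whereas the published methods describe STAR and HTSeq for unstranded, poly(A)-selected paired reads. The TPM values deposited by the authors were not used. Expected counts were summed over 54193 genes of GENCODE M39 and rounded, and 0.395 to 0.566% of counts had no gene. Depth was 18.8 to 26.2 M counts per library.

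edgeR 4.0.16 fitted all 16 libraries with group and replicate number (8 residual degrees of freedom, TMM, filterByExpr, 14838 of 27228 genes with counts kept). The coefficient of variation between libraries was 19.0%, and 32.3% without replicate number. The call threshold was a Benjamini-Hochberg adjusted p under 0.05 with a fold above 1.5, and the adjusted p alone for differences between effects. The labels call replicates biological, without saying what a number marks. Deviations from the group mean of same-numbered KO+R and WT+R libraries correlated at 0.50 and 0.56, and those of different numbers at -0.56 to 0.18. With only 2 WT+R libraries their deviations mirror each other, so the values for different numbers are no separate check of the pairing. The Y-linked Ddx3y was at 0 CPM in all libraries numbered 1, 80.4 to 92.3 CPM in those numbered 2 and 41.9 to 47.9 CPM in those numbered 3.

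Named genes were the 6 the study names, called genes of 1 CPM or more on average with no overlap between groups and equal sign in pairs 1 and 2 (up to 12 a direction), the 5 with the smallest p each way for the difference, and called members of each list or else its 2 with the smallest p. Members, lists and tests were chosen with earlier results of these data known. In the study's list, 2 older symbols were matched to Ctps1 and Nherf2. Alternatives covered DESeq2 1.42.0, the block, scaling, filters, effective lengths and the libraries used. The propranolol libraries entered only the shared fit. Values of a named gene were left out and are not reported here.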

Additional observations from a re-analysis of the deposited data

How the results depend on the processing

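The number of genes called between KO+R and WT+R, 14 in the report, was 0 without the replicate block, 304 with DESeq2 and the block, 77 with DESeq2 and no block, 98 with all genes of any count, 127 with only rapamycin and untreated libraries, 697 with only the 5 rapamycin libraries, 719 with only rapamycin replicates 1 and 2, and 32 without the untreated library labelled WT replicate 1. It ranged from 0 to 10 when a rapamycin library was left out. The cause was not tested, but the coefficient of variation was 19.0% over all 16 libraries, 14.66% over rapamycin and untreated libraries and 15.89% over the 5 rapamycin libraries. All 14 genes were called in 8 of the 11 other settings. The fits on the 5 rapamycin libraries and on replicates 1 and 2 alone are not separate checks. The block absorbed KO+R replicate 3 in the former, so both rested on pairs 1 and 2. With effective lengths Hs6st2 and Sema3e were lost, and with DESeq2 and no block 8 of 14 were called. The count of genes whose genotype effect differed with rapamycin, 0 in the report, was 7 with DESeq2 and the block, 1 with DESeq2 and no block, 1 with all genes of any count (Kif14) and 3 with only rapamycin and untreated libraries (Id3, Kif14 and 4930523C07Rik). The DESeq2 counts include Fam169b, Gm11537, Gm45062 and Gm45140, whose fitted differences were too large to be read as folds. Pdcd10 passed with DESeq2 and the block (log2 fold change -2.28), with DESeq2 and no block (-2.20), with all genes of any count (-2.29), with the 5 rapamycin libraries (-2.21), with replicates 1 and 2 alone (-2.21) and without the library labelled WT replicate 1 (-2.17). It did not pass with effective lengths (-1.64, adjusted p = 0.139). Members called, 0 in each list and 1 of the study's 168 genes in the report, were more with only the 5 rapamycin libraries: 9 in the KLF2 and KLF4 list, 8 in the mesenchymal transition list, 6 each in the Notch and matrix lists, 5 each in the BMP, YAP and TAZ and coagulation lists, 4 each in the CCM and STRIPAK, cholesterol and endothelial lists, 0 to 3 in the other 8 and 113 of the study's genes. With all genes of any count they were 0 or 1 a list and 27 of the study's genes, with only rapamycin and untreated libraries 0 to 2 and 23, and without the untreated library labelled WT replicate 1 they were 1 (CCM and STRIPAK) and 8. Of the genes named by the rules above, none reversed its direction between KO+R and WT+R under any setting run. A few of the study's 168 genes did, since 166 had the untreated sign in the report, 165 without the block and 164 without WT+R replicate 2. Having only 2 WT+R libraries limits the precision, and the labels do not say what a replicate number marks.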
